A study of Mus musculus with 12 samples.

Results

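The RNA of 45 genes of DNA replication and mitosis was compared between intestinal crypts and the monolayers grown from crypts, in the small intestine (SI) and the large intestine (LI) of the mouse. The genes are a list of symbols, and each of the 45 matched 1 row of the 55487 in the deposited tables. They were read apart as 21 replication genes, 21 mitosis genes and 3 transcription regulators (E2f1, E2f2 and Foxm1), and all 45 passed the filter on low counts that left 19581 genes for testing. Read counts of the members ran from 100 for Fen1 to 20670 for Pcna, in a library.

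The 12 libraries formed 4 groups of 3 from C57BL/6 mice, with no oncology drug given: crypts freshly isolated from the SI, crypts freshly isolated from the LI, SI monolayers and LI monolayers. GEO's labels call the crypts in vivo tissue. A monolayer is a sheet of primary intestinal epithelial cells that grows out from crypts plated on Matrigel, and RNA was taken after 24 h in control medium, which holds Wnt, EGF, Noggin and R-spondin. The plated crypts were first held for a few hours in a seeding medium that held small-molecule inhibitors, among them inhibitors of GSK3 and of BMP receptors. Inhibitors of GSK3 and of BMP receptors are not described for the fresh crypts, so culture and this exposure cannot be told apart. Another inhibitor of the seeding medium was also present when large intestine pieces were digested for culture. The sources used here do not say whether LI crypts for RNA met it. Each crypt library came from 1 mouse and each monolayer library from pooled wells. For testing, the spread of each gene was estimated over all 4 groups, so p-values mix the spread between mice and that between pools. SI crypts for culture were taken from the jejunum with EDTA and LI crypts were also digested with enzymes, so region and preparation cannot be told apart. The methods take the large intestine for culture from the same mice as the small intestine, so SI and LI libraries may share animals, and which ones is not given in the sources used here. In bulk RNA, fewer cells of a type and less RNA per cell cannot be told apart either.

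Replication genes act when the genome is copied. Cdc6 and Cdt1 load the Mcm helicase onto origins, Cdc45 and the GINS proteins switch the helicase on, polymerases, primase and the sliding clamp Pcna copy the strands, and ribonucleotide reductase and thymidine kinase supply the nucleotides. Mitosis genes act later, when cyclin B with Cdk1 and the Plk1 and Aurora kinases drive entry into division. The kinetochore ties chromosomes to the spindle, its checkpoint delays anaphase, and Cdc20 opens the way to anaphase. In the intestine both sets mark the dividing cells of the crypt, and in general the replication set is driven by E2F factors and the mitosis set by Foxm1, B-Myb and the complex they bind.

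A window from 250 bases before to 50 bases after the start of transcription was taken from RefSeq (GRCm38.p6) and searched on both strands for 3 kinds of sequence. E2F-type sequences were searched in 4 spellings. These were TTCCCGC and, with other letters in the middle, TTGGCGC as well. A further spelling was TTGCCGC, and the last spelling, which can overlap the others, was TTCGCGC in the same window. CHR-type sequences, named for the cell cycle homology region of mitotic promoters, were TTTGAA as a first spelling and TTCGAA as the other spelling. CCAAT is the box bound by NF-Y. Of the members, 36 had a window, 17 of them replication genes and 17 mitosis genes. An E2F-type sequence was found in 12 of the 17 replication genes (70.6%), in 3 of the 17 mitosis genes (17.6%), in 17.7% of the 12623 tested genes with a window and in 10.9% of all 27025 genes with one. A CHR-type sequence was found in 4 of the replication genes (23.5%) and in 13 of the mitosis genes (76.5%), against 17.2% of the tested genes and 21.7% of all genes. CCAAT was common to both sets, with 12 replication genes (70.6%) and 15 mitosis genes (88.2%), against 42.2% of the tested genes. In 3 windows of members an E2F-type sequence and a CCAAT share bases. A match describes the letters of a window and is not a bound site.

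**Figure D1:**
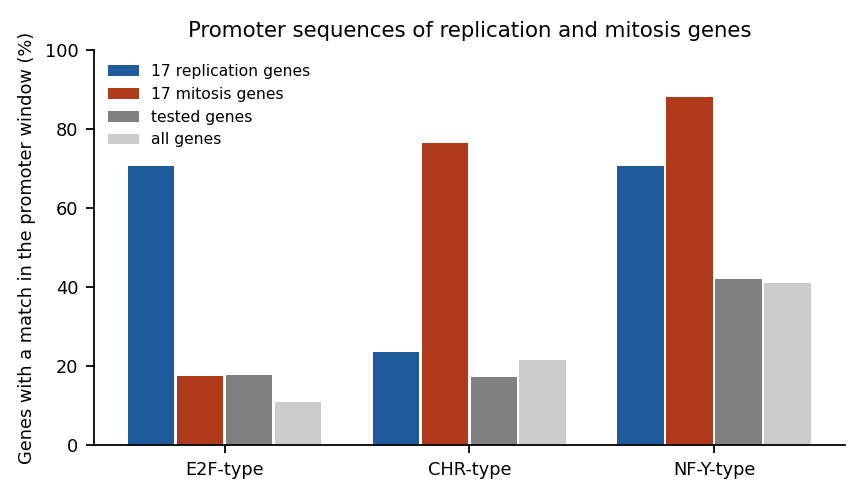
Bars give the percentage of genes with at least 1 match in the promoter window (y axis) for each kind of sequence (x axis), in 17 replication genes, 17 mitosis genes, the tested genes and all genes with a window. E2F-type matches stand highest in replication genes (70.6%) and CHR-type matches in mitosis genes (76.5%), while NF-Y-type matches (CCAAT) are frequent in both.

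The replication promoters below belong to a helicase subunit (Mcm6), a loader of the helicase (Cdc6), the catalytic subunit of polymerase alpha (Pola1) and the large subunit of ribonucleotide reductase (Rrm1), whose changes in monolayers were larger in LI than in SI. They are printed from 140 bases before to 25 bases after the start, with E2F-type sequences in capitals: Mcm6 at chr1:128359681-128359845 (minus strand), Cdc6 at chr11:98908011-98908175 (plus strand), Pola1 at chrX:93632131-93632295 (minus strand) and Rrm1 at chr7:102441555-102441719 (plus strand).
Mcm6: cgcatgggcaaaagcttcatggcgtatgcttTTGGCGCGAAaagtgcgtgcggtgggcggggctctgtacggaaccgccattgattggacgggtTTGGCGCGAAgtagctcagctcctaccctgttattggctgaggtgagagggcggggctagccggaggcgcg
Cdc6: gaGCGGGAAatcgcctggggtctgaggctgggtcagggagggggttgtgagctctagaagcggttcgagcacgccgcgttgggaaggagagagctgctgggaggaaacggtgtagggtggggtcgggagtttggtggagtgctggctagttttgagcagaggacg
Pola1: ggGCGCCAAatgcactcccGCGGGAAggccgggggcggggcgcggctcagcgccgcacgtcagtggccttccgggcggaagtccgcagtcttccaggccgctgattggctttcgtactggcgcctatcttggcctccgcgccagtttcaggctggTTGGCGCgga
Rrm1: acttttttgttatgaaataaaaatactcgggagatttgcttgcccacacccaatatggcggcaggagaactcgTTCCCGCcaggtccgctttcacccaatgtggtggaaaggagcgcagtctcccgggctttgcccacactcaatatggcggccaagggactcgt
In Mcm6, pairs of matches overlap, so each run of capitals is longer than 1 match. Mcm7 and Prim1, not printed, also hold E2F-type sequences, and their changes did not differ between regions by the test. Mcm2 holds none in its window, and its change was larger in LI. Whether a match goes with a change was not tested.

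The mitosis promoters belong to the 3 genes with the largest difference between SI and LI monolayers (Ccnb2, Cdc20 and Cenpa), to Cdk1, which rose in both regions, and to Mki67, for which no comparison passed the test. CHR-type sequences are in capitals, with the same limits of the stretch: Ccnb2 at chr9:70421530-70421694 (minus strand), Cenpa at chr5:30666746-30666910 (plus strand), Cdc20 at chr4:118437319-118437483 (minus strand), Cdk1 at chr10:69352888-69353052 (minus strand) and Mki67 at chr7:135716355-135716519 (minus strand).
Ccnb2: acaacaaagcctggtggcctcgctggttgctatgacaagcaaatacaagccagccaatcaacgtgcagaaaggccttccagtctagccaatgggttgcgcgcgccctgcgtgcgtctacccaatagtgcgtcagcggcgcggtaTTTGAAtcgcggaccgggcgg
Cenpa: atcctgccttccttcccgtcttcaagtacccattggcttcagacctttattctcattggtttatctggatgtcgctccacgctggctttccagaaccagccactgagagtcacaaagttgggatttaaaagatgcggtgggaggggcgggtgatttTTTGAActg
Cdc20: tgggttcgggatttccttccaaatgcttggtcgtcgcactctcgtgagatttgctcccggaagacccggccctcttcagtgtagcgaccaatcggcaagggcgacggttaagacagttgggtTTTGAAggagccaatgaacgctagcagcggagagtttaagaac
Cdk1: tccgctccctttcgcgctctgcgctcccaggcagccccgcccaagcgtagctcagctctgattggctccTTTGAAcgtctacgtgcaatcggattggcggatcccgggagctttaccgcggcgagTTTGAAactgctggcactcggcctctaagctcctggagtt
Mki67: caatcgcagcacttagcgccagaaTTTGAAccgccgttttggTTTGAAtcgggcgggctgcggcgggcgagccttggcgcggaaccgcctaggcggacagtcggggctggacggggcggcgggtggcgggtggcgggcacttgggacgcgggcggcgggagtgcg
Cdk1, which rose in both regions, and Ccnb2, which fell in both, each hold TTTGAA in these stretches. Their windows differ in other ways, as Cdk1 has E2F-type matches at -178 and -130 from the start and Ccnb2 has none. Whether these sequences go with the changes was not tested.

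Libraries held 59016196 to 76216530 counts, and values of single libraries below are the authors' normalized counts, in the order of libraries 1, 2 and 3 of a group. Epithelial markers (6 genes) summed to 799280 to 889365 normalized counts in SI crypts, 1433090 to 1444730 in LI crypts, 1720060 to 1761430 in SI monolayers and 2267550 to 2369530 in LI monolayers. In SI, 4 of them rose and 2 fell, the keratin genes Krt8, Krt18 and Krt19 made up most of the sum in monolayers, and Epcam was at 103148 to 108303 in crypts against 81695.5 to 84931.8 in monolayers. The summed level of 12 immune markers was 15161.5 to 18873 normalized counts in SI crypts, 3207 to 3609 in SI monolayers, 3471 to 6044 in LI crypts and 501 to 647 in LI monolayers. In SI 1 immune marker rose and 10 fell, with a median log2 fold change of -4.30. The marker that rose was Cd68, at 35.3 to 62.5 in SI crypts and 128 to 161 in SI monolayers. Lyz2, whose SI crypts and monolayers overlapped, alone held 2532 to 2880.4 of the SI monolayer sum. Ptprc, the common leukocyte antigen, was at 2832 to 4624 in SI crypts and 142 to 176 in SI monolayers. In LI 1 rose and 11 fell (median -3.61). Mature enterocyte markers (10 genes) summed to 1002020 to 1597580 in SI crypts against 309716 to 324761 in SI monolayers, and mature colonocyte markers (8 genes) to 338177 to 537073 in LI crypts against 69280.3 to 70552.7 in LI monolayers. Stem cell markers (8 genes) went from 85936.8 to 111817 in SI crypts to 11888.7 to 12297.9 in SI monolayers, and from 8541.78 to 9423.53 in LI crypts to 2190.1 to 2655.23 in LI monolayers. Olfm4 held most of the SI crypt sum, at 71877.7 to 94859 against 1138 to 1325 in SI monolayers, while Lgr5 was at 520.2 to 790.4 and 647 to 742. By the test 2 stem cell markers rose and 4 fell in SI (median -0.57), and 1 rose and 6 fell in LI (median -3.52). For comparison with these marker counts, 29.0% of all tested genes were called higher and 30.6% lower in SI, and 32.1% and 36.6% in LI. The 25% of stem cell markers that rose in SI were near that share. The 12 mesenchymal and endothelial markers summed to 1478 to 3302 in SI crypts, 1546 to 2225 in SI monolayers, 3563 to 5632 in LI crypts and 4420.1 to 5966 in LI monolayers. Of all markers in these lists, only Cdh5 was at 0 in all libraries of a group, in SI monolayers. Mitochondrial transcripts took 4.56% to 9.16% of the counts in SI crypts, 2.25% to 2.59% in LI crypts, 0.472% to 0.559% in SI monolayers and 0.704% to 0.750% in LI monolayers. These lists moved with the same groups as the genes below, and their part in the results was not tested.

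In SI, most genes of both sets were higher in monolayers than in fresh crypts, the replication genes by more. With edgeR's quasi-likelihood test and a Benjamini-Hochberg adjusted p under 0.05 over all tested genes, 16 replication genes rose and 1 fell, and 13 mitosis genes rose and 2 fell, where 29.0% of all tested genes were called higher and 30.6% lower. Libraries did not overlap, with monolayers on top, for 17 replication and 13 mitosis genes (30.7% of all tested genes), and with crypts on top for 1 and 4 (35.7%). The median log2 fold change was 0.60 for replication genes, 0.28 for mitosis genes and -0.05 for all tested genes. A change of at least 1 on the log2 scale beside the adjusted p was reached by 3 replication genes (Mcm3, Cdc6 and Rrm2) and by 0 mitosis genes, also with DESeq2 (15 mitosis genes had an unadjusted p under 0.05 without that limit), while 9.71% of all tested genes rose and 16.4% fell by that rule.

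In LI, the replication genes rose further and the mitosis genes split. There 18 replication genes rose (85.7%) and 1 fell (4.76%), while 9 mitosis genes rose (42.9%) and 6 fell (28.6%). Of all tested genes 32.1% were called higher and 36.6% lower, so the mitosis genes lay nearer to these shares than the replication genes did. Libraries did not overlap, with monolayers on top, for 17 replication and 9 mitosis genes (33.1% of all tested genes), and with crypts on top for 2 and 7 (40.0%). The median log2 fold change was 0.91 for replication genes, 0.11 for mitosis genes and -0.05 for all tested genes. At a log2 change of at least 1, 9 replication genes rose, 2 mitosis genes fell (Ccnb2 and Cenpa) and E2f1 rose, beside 14.5% of all tested genes that rose and 23.5% that fell. Upper quartile scaling shifted the median of all tested genes in LI by -0.12, and the list medians there became 0.79 for replication and -0.010 for mitosis.

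The mean level of each list in each library shows the same division. It is the mean over the genes of a list of log2(normalized count + 1), minus the mean of each gene over the 12 libraries. For replication genes it was -0.11, -0.09 and -0.05 in SI crypts, 0.42, 0.40 and 0.41 in SI monolayers, -0.62, -0.47 and -0.75 in LI crypts and 0.23, 0.28 and 0.35 in LI monolayers. All 6 monolayer libraries thus stood above all 6 crypt libraries, and LI crypts stood below SI crypts. For mitosis genes it was -0.13, -0.02 and 0.08 in SI crypts, 0.20, 0.21 and 0.19 in SI monolayers, -0.18, -0.11 and 0.06 in LI crypts and -0.13, -0.11 and -0.07 in LI monolayers. The SI monolayers stood above the other libraries, and LI monolayers lay within the range of LI crypts. The mean of mitosis genes differed by -0.03 between LI monolayers and LI crypts, while their median log2 fold change was positive. That mean used the authors' normalized counts, and the median came from fits with TMM scaling. With TMM scaling (log2 CPM) the levels were -0.23, -0.15 and 0.03 in LI crypts and -0.11, -0.11 and -0.07 in LI monolayers. On that scale the mean was slightly higher in LI monolayers, so the sign of that list's small change depends on the scaling used.

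LI crypt library 3 had the lowest replication level (-0.75) and the highest mitosis level (0.06) of the LI crypts. The SD between libraries was 0.14 in LI crypts, 0.06 in LI monolayers, 0.03 in SI crypts and 0.01 in SI monolayers for replication genes, and 0.12, 0.03, 0.11 and 0.01 in the same order for mitosis genes.

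**Figure D2:**
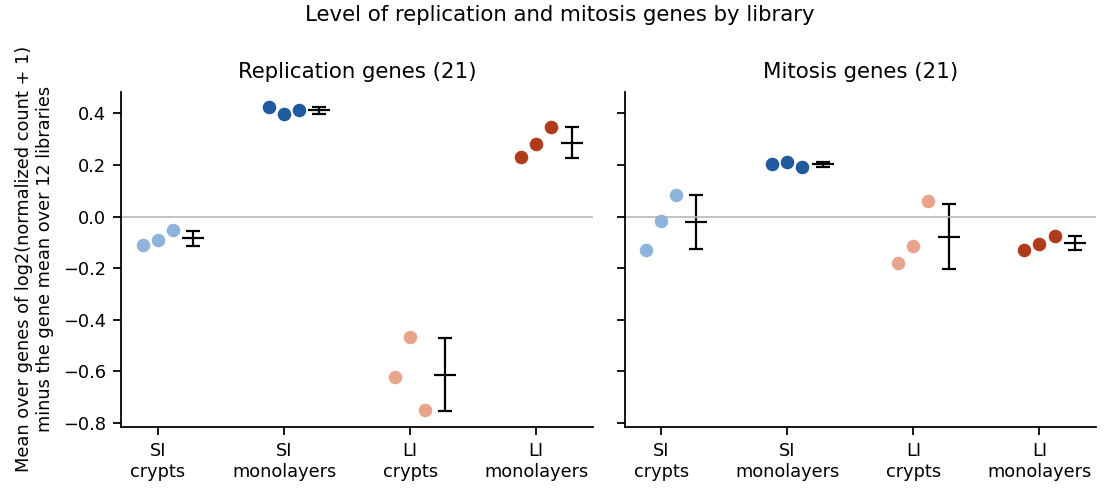
Each point is the mean level of a list in 1 library (y axis, log2 units relative to the mean of each gene over 12 libraries), by group (x axis), with the mean and SD of 3 libraries beside the points. Replication genes are at 0.23 or more in every monolayer library and below 0 in every crypt library, whereas mitosis genes are at 0.19 to 0.21 in SI monolayers and at 0.08 or less in all other libraries.

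Among the 12 genes of origin licensing and the helicase, 10 rose in SI and 11 in LI monolayers. Of all tested genes, 29.0% and 32.1% were called higher in the same order. The median log2 fold change of the 12 was 0.60 and 1.05. Mcm3, a subunit of the helicase ring, was at 3729, 3686 and 3335 normalized counts in SI crypts and 8230.5, 8216 and 8302 in SI monolayers, and at 2441, 2645 and 1941 in LI crypts and 7753, 8360.4 and 8809 in LI monolayers. Every monolayer library was above every crypt library, and the groups of monolayers overlapped. Mcm3 rose 2.36-fold in SI (log2 fold change 1.24 ± 0.09 SE, adjusted p = 7.79e-09) and 3.66-fold in LI (1.87 ± 0.09, adjusted p = 3.95e-11). Cdc6, which loads the helicase, was at 854, 869 and 785 in SI crypts, 1910.0, 1702 and 2023 in SI monolayers, 415, 479 and 398 in LI crypts and 1543, 1735 and 1751 in LI monolayers. Its LI crypts lay below its SI crypts without overlap, while the monolayers of the regions overlapped. It rose 2.30-fold in SI (1.20 ± 0.09, adjusted p = 7.72e-09) and 4.02-fold in LI (2.01 ± 0.09, adjusted p = 1.13e-11).

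Mcm6 and Mcm7 belong to the same ring. Mcm6 was at 6718, 6931 and 6698 normalized counts in SI crypts, 9974, 9464 and 9947 in SI monolayers, 4097, 4706 and 3538 in LI crypts and 10855, 11252 and 12200.0 in LI monolayers, so LI went from the lowest to the highest of the 4 groups. It rose 1.48-fold in SI (log2 fold change 0.56 ± 0.08) and 2.87-fold in LI (1.52 ± 0.08), and the changes differed between regions (interaction -0.96 ± 0.11, adjusted p = 3.02e-06). Mcm7 rose by 0.74 ± 0.06 in SI and 0.76 ± 0.06 in LI, and its interaction missed the threshold (-0.02 ± 0.09, adjusted p = 0.863). The ratio of Mcm6 to Mcm7 normalized counts was 1.17 ± 0.03 in SI crypts, 1.04 ± 0.03 in SI monolayers, 0.842 ± 0.036 in LI crypts and 1.43 ± 0.02 in LI monolayers (SD, n = 3). Mcm10 and Cdc45 rose by 0.52 or less in both regions, and Gins2 passed no test. Mcm2, Mcm4 and Mcm5 of the ring rose by 0.67 ± 0.08, 0.85 ± 0.08 and 0.64 ± 0.07 in SI, and Cdt1, the partner of Cdc6 in loading, by 0.51 ± 0.08. In LI these 4 genes rose by 1.19 ± 0.08, 1.58 ± 0.08, 0.91 ± 0.07 and 1.28 ± 0.08. Gins1 in LI (0.24 ± 0.09, adjusted p = 0.0282) lost its call in 8 of 12 fits without 1 library, with values from 0.11 to 0.30.

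The lowest log2 fold changes of the replication set include Gins2, at 1191, 1265 and 1478 normalized counts in SI crypts, 1427, 1496 and 1448 in SI monolayers, 1489, 1605 and 1467 in LI crypts and 1452, 1442 and 1454 in LI monolayers. It encodes a GINS subunit, all its libraries lay between 1191 and 1605, and 67.3% of its exon bases overlap exons of Gse1 on the other strand, so its counts are uncertain because the use of strand in counting is not given in the sources used here. The same holds for Fen1, the flap nuclease of the lagging strand, of whose exon bases 84.2% overlap genes on the other strand (Tmem258 and Gm10143). Fen1 was at 167, 221 and 258 in SI crypts, 342, 347 and 295 in SI monolayers, 93.97, 123 and 99.98 in LI crypts and 313, 296 and 346 in LI monolayers.

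Of the 6 polymerase and fork genes, 4 rose in SI and 5 in LI, against 29.0% and 32.1% of all tested genes. The median log2 fold change of the 6 was 0.41 and 0.76. Pole, the catalytic subunit of polymerase epsilon, was at 1137, 983 and 1054 normalized counts in SI crypts, 1752, 1744 and 1830.1 in SI monolayers, 607, 688 and 534 in LI crypts and 2024, 1810.0 and 1949.7 in LI monolayers. The LI crypts were lowest, and monolayers overlapped between regions. Pole rose by 0.78 ± 0.09 in SI (adjusted p = 1.14e-06) and by 1.71 ± 0.09 in LI (adjusted p = 6.57e-11), with an interaction of -0.93 ± 0.13 (adjusted p = 1.77e-05). Pola1 was at 1355, 1253 and 1381 in SI crypts and 1328, 1254 and 1235 in SI monolayers, which overlap, but at 780.0, 909.8 and 739 in LI crypts and 1089.8, 1308 and 1321 in LI monolayers. Its rise in LI was 0.66 ± 0.09 (adjusted p = 8.97e-06, interaction -0.69 ± 0.13, adjusted p = 0.000407). Prim1, the primase that works with it, was at 1859.6, 2017 and 2143 in SI crypts, 1968, 1859 and 1616 in SI monolayers, 1479, 1459.9 and 1491 in LI crypts and 1593, 1469 and 1537 in LI monolayers, and neither change with culture passed the test. Pcna, the sliding clamp, rose by 0.67 ± 0.07 in SI and 0.85 ± 0.07 in LI and had the highest level per kb of exon of all members in every group (3947 to 7718 normalized counts per kb). Lig1, which seals the fragments of the lagging strand, rose by 0.45 ± 0.08 in LI, and its SI call (0.19 ± 0.08) was lost in 5 of 12 fits without 1 library.

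The genes of nucleotide supply went both ways. Rrm2, the regulated small subunit of ribonucleotide reductase, was at 2347, 2209 and 2528 normalized counts in SI crypts, 5108, 5253 and 5362 in SI monolayers, 1455, 1854 and 1384 in LI crypts and 4557, 4627 and 5096 in LI monolayers. It rose 2.27-fold in SI (log2 fold change 1.18 ± 0.09, adjusted p = 2.62e-08) and 3.14-fold in LI (1.65 ± 0.09, adjusted p = 3.34e-10). Rrm1, the large subunit, rose by 0.60 ± 0.06 and 0.93 ± 0.06 in the same order. Tk1, which salvages thymidine, was at 4997, 4628 and 5587 in SI crypts, 3549, 3536 and 3658 in SI monolayers, 4161, 4397 and 4306 in LI crypts and 3092, 3003 and 2984 in LI monolayers. It was the only replication gene that fell, 1.38-fold in SI (-0.47 ± 0.06, adjusted p = 9.77e-06) and 1.37-fold in LI (-0.46 ± 0.06, adjusted p = 9.23e-06), with no overlap of crypts and monolayers. The ratio of Rrm2 to Tk1 was 0.467 ± 0.013 in SI crypts and 0.364 ± 0.052 in LI crypts, against 1.46 ± 0.02 and 1.57 ± 0.12 in the monolayers (SD, n = 3).

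**Figure D3:**
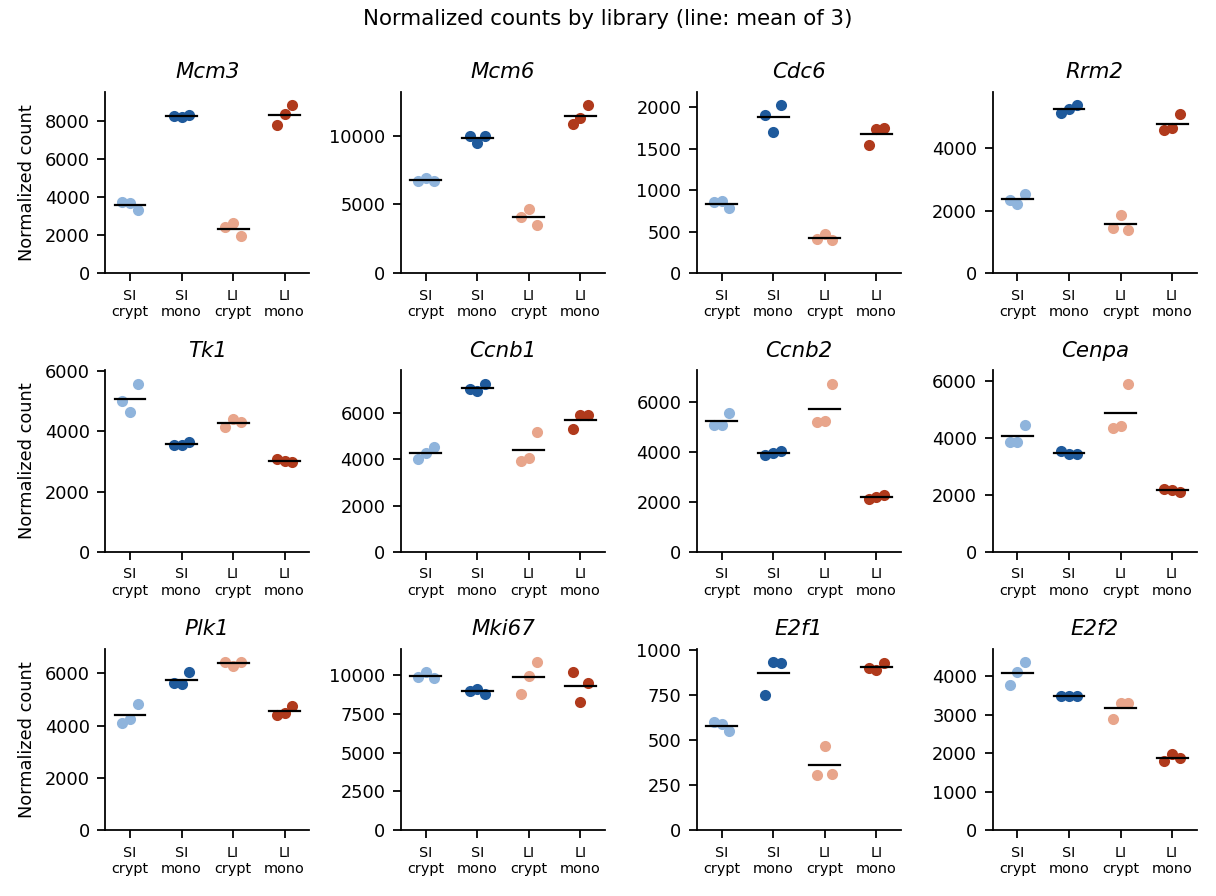
Normalized counts of 12 genes in each library (y axis, from 0), by group (x axis), with a line at the mean of 3 libraries. Mcm3, Mcm6, Cdc6, Rrm2 and E2f1 are higher in monolayers of both regions, Tk1 and E2f2 are lower, Ccnb2 and Cenpa fall furthest in LI monolayers, and Plk1 goes up in SI and down in LI.

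Mki67, which encodes the proliferation antigen Ki-67, passed no test. It was at 9847, 10162 and 9817 normalized counts in SI crypts, 8977, 9091 and 8741 in SI monolayers, 8743, 9929 and 10831 in LI crypts and 10157, 8227 and 9473 in LI monolayers. The SI monolayers lay below the SI crypts without overlap, and the LI groups overlapped. The fitted log2 fold change of Mki67 was -0.12 ± 0.08 in SI (adjusted p = 0.225), -0.04 ± 0.08 in LI (adjusted p = 0.702), 0.05 ± 0.08 for SI over LI crypts (adjusted p = 0.607) and -0.03 ± 0.08 for SI over LI monolayers (adjusted p = 0.815). With only genes of at least 10 counts in every library tested, the SI value was -0.19 with an adjusted p of 0.0431.

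Cyclins and mitotic kinases parted in culture. Of the 7 genes of this class, 6 rose and 1 fell in SI monolayers, beside 29.0% higher and 30.6% lower of all tested genes. In LI monolayers 3 rose (42.9%) and 2 fell (28.6%), near the 32.1% and 36.6% of all tested genes. Ccnb1, which encodes a B-type cyclin, was at 4034, 4288 and 4552 normalized counts in SI crypts, 7026, 6978 and 7279 in SI monolayers, 3927, 4071 and 5185 in LI crypts and 5319.8, 5939.8 and 5913 in LI monolayers. Ccnb2, which encodes its close relative, was at 5055, 5072 and 5566 in SI crypts, 3892, 3959.5 and 4039 in SI monolayers, 5213, 5253 and 6733 in LI crypts and 2130.4, 2175 and 2259 in LI monolayers. The cyclins moved in opposite directions in both regions, with no overlap of crypts and monolayers.

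Ccnb1 rose by 0.76 ± 0.09 on the log2 scale in SI (adjusted p = 5.47e-06) and by 0.43 ± 0.09 in LI (adjusted p = 0.000858). Ccnb2 fell 1.29-fold in SI (-0.37 ± 0.09, adjusted p = 0.00167) and 2.54-fold in LI (-1.34 ± 0.09, adjusted p = 1.5e-09), and these falls differed (interaction 0.98 ± 0.12, adjusted p = 9.75e-06). The ratio of Ccnb2 to Ccnb1 normalized counts was 1.22 ± 0.04 in SI crypts and 1.31 ± 0.02 in LI crypts, against 0.559 ± 0.008 in SI monolayers and 0.383 ± 0.017 in LI monolayers (SD, n = 3). The ratio was thus 1.18 or more in all 6 crypt libraries and 0.567 or less in all 6 monolayer libraries.

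Ccna2, the cyclin that spans replication and mitotic entry, and Aurkb, the kinase of the passenger complex, rose in SI, by 0.29 ± 0.09 and 0.22 ± 0.07, and passed no test in LI. Without SI crypt library 1 both SI calls were lost (0.21 for Ccna2 and 0.16 for Aurkb), and that of Aurkb also with upper quartile scaling (0.18) and with at least 10 counts in every library (0.15). Plk1, a kinase of mitotic entry, moved in opposite directions in the regions. It was at 4105, 4257 and 4840.1 normalized counts in SI crypts and 5617, 5581 and 6047 in SI monolayers, but at 6431, 6296 and 6436 in LI crypts and 4400.4, 4495 and 4749 in LI monolayers. LI crypts were highest of the groups and LI monolayers overlapped the SI crypts. Plk1 rose by 0.42 ± 0.06 in SI (adjusted p = 2.38e-05) and fell by 0.44 ± 0.06 in LI (adjusted p = 9.03e-06), with an interaction of 0.86 ± 0.09 (adjusted p = 9.24e-07). Cdc20, the activator of the anaphase promoting complex, showed the same pattern of signs, at 6449, 7432 and 7339 in SI crypts, 9659, 9704 and 9826 in SI monolayers, 6803, 6631 and 8085 in LI crypts and 5753, 6098 and 5966 in LI monolayers. Cdc20 rose by 0.49 ± 0.07 in SI (adjusted p = 2.17e-05) and fell by 0.23 ± 0.07 in LI (adjusted p = 0.0116), and the latter call was lost without LI crypt library 3 (-0.12).

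The kinases Aurka and Cdk1 and the checkpoint kinase Bub1 rose in both regions. Aurka, at 2929, 3069 and 3408 normalized counts in SI crypts, reached 5027, 5045 and 5383 in SI monolayers, and went from 2614, 2947 and 3193 in LI crypts to 3575, 3703 and 3962 in LI monolayers. Cdk1 went from 3803, 4172 and 4527 to 6512, 6247 and 6615 in SI and from 3572, 4185 and 4287 to 5453, 5610.3 and 5489 in LI. Bub1 went from 1087, 1302 and 1457 to 1939, 1884 and 1679.6 in SI and from 1026, 1065 and 1331 to 1576, 1536 and 1672 in LI. For all 3 genes the monolayers lay above the crypts of their region without overlap. The log2 fold changes in SI and LI were 0.75 ± 0.08 and 0.41 ± 0.08 for Aurka (adjusted p = 4.22e-07 and 0.000222), 0.67 ± 0.07 and 0.50 ± 0.07 for Cdk1 (adjusted p = 9.55e-07 and 1.47e-05) and 0.55 ± 0.11 and 0.53 ± 0.11 for Bub1 (adjusted p = 0.000637 and 0.000724). Ube2c, the ubiquitin-conjugating enzyme of the anaphase promoting complex, rose by 0.66 ± 0.07 and 0.48 ± 0.07, and Bub1b, another checkpoint gene, fell in LI by 0.24 ± 0.07.

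Kinetochore genes behaved differently from each other. Cenpa, the centromeric histone variant, was at 3869, 3866 and 4448 normalized counts in SI crypts, 3537, 3418 and 3443 in SI monolayers, 4354, 4405 and 5903 in LI crypts and 2203, 2177 and 2101 in LI monolayers. LI monolayers were far below every other library, and Cenpa fell 2.19-fold in LI (log2 fold change -1.13 ± 0.11, adjusted p = 2.84e-07), while the SI change missed the threshold (adjusted p = 0.123). Without LI crypt library 3, which held the most Cenpa, the LI change was -0.97. Cenpf, a kinetochore protein of late cycle, was at 1834, 2073 and 2140.0 in SI crypts, 1592, 1628 and 1472 in SI monolayers, 1991, 1951 and 2297 in LI crypts and 1939, 1782 and 1802 in LI monolayers, and it fell in SI (-0.33 ± 0.08, adjusted p = 0.00228). Cenpe, the kinetochore motor, was at 1750.2, 2025 and 2111 in SI crypts and 2041, 2112 and 1757 in SI monolayers, which overlap, and at 1734, 1727 and 2052 in LI crypts and 2459, 2495 and 2362 in LI monolayers, where it rose by 0.45 ± 0.09 (adjusted p = 0.000327). Birc5, the survivin of the chromosomal passenger complex, rose in SI by 0.28 ± 0.08.

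Of the 4 spindle genes, Tpx2 and Kif20a rose in both regions, by 0.59 ± 0.06 and 0.59 ± 0.09 in SI and by 0.43 ± 0.06 and 0.39 ± 0.09 in LI. Tpx2 assembles the spindle and Kif20a is a motor of late division, 29.3% of whose exon bases overlap Cdc23 on the other strand. Nusap1, which bundles spindle microtubules, fell in LI (-0.32 ± 0.11, adjusted p = 0.0175), a call lost without LI crypt library 3 (-0.23). Top2a, the topoisomerase that untangles chromosomes, was at 11532, 13282 and 13189 normalized counts in SI crypts, 14078, 14185 and 13340.4 in SI monolayers, 9216, 9779 and 9122 in LI crypts and 11394, 12036 and 12759 in LI monolayers. It rose by 0.41 ± 0.06 in LI (adjusted p = 1.59e-05) and by 0.16 ± 0.06 in SI (adjusted p = 0.0278), and the SI call was lost without SI crypt library 1 (0.10), with DESeq2 (adjusted p = 0.118) and with upper quartile scaling (adjusted p = 0.0939).

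**Figure D4:**
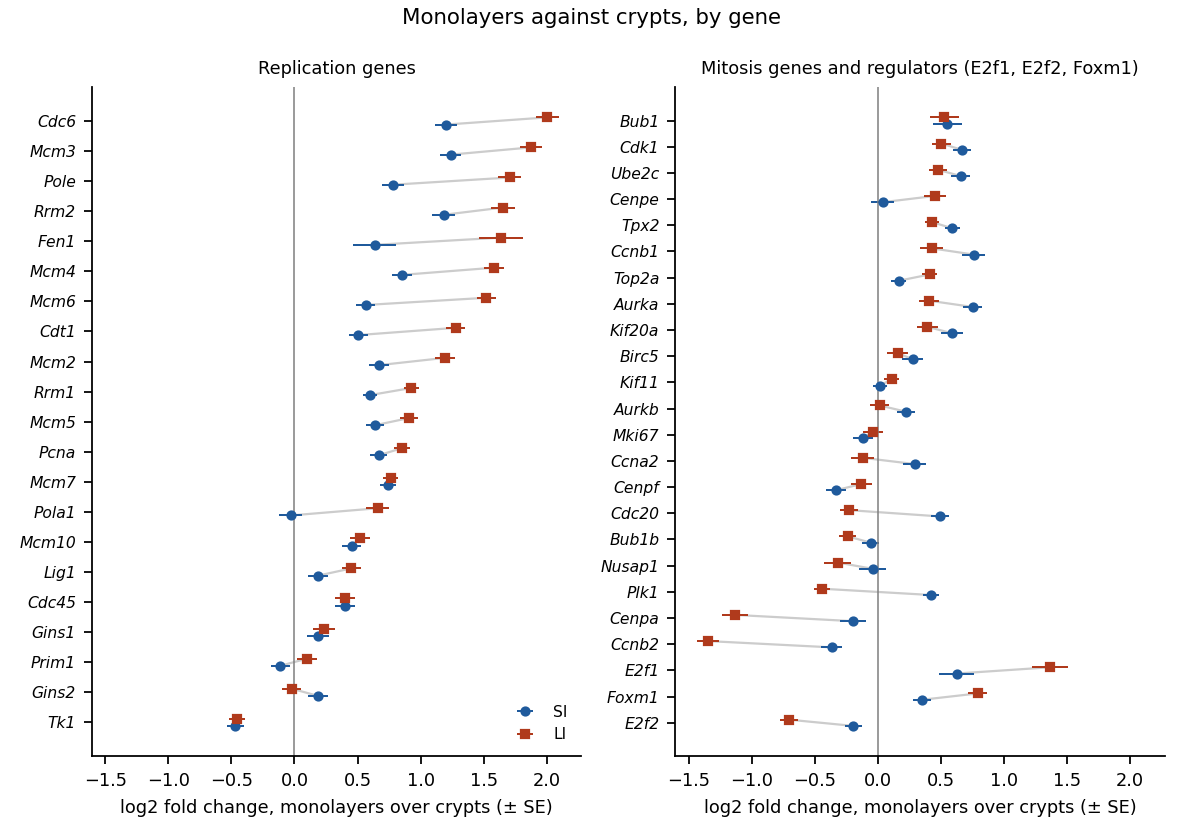
Log2 fold change of monolayers over crypts (x axis, ± SE derived from edgeR's F statistic) for each gene (y axis), with circles for SI and squares for LI. Replication genes lie mostly to the right of 0, further in LI, up to 2.01 for Cdc6, while mitosis genes lie between -0.37 and 0.76 in SI and between -1.34 and 0.53 in LI.

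The transcription regulators went both ways. E2f1, an activator of replication genes, was at 599, 587 and 550.4 normalized counts in SI crypts, 751, 931 and 927 in SI monolayers, 306, 469 and 309 in LI crypts and 898, 886 and 923 in LI monolayers. It rose 1.54-fold in SI (log2 fold change 0.62 ± 0.14, adjusted p = 0.00114) and 2.58-fold in LI (1.37 ± 0.14, adjusted p = 3.05e-07), and no monolayer library overlapped a crypt library. E2f2, of the same family, was at 3772, 4102 and 4368 in SI crypts, 3474, 3479 and 3496 in SI monolayers, 2889, 3304 and 3310.1 in LI crypts and 1791, 1974 and 1884 in LI monolayers. E2f2 fell in LI by 0.71 ± 0.07 (adjusted p = 1.56e-07) and in SI by 0.19 ± 0.07 (adjusted p = 0.0236), where the call was lost in 7 of 12 fits without 1 library (-0.25 to -0.14). The ratio of E2f1 to E2f2 normalized counts was 0.143 ± 0.016 in SI crypts and 0.114 ± 0.025 in LI crypts, and 0.250 ± 0.029 in SI monolayers and 0.480 ± 0.028 in LI monolayers (SD, n = 3). Foxm1, a driver of mitotic genes, went from 1744, 1763 and 1843 to 2159.6, 2315 and 2191 in SI and from 1303, 1313 and 1467 to 2089, 2313 and 2442 in LI, a rise of 0.35 ± 0.07 (adjusted p = 0.00048) and 0.79 ± 0.07 (adjusted p = 5.33e-08).

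Fresh crypts of the regions differed in replication genes and little in mitosis genes. In SI crypts 20 replication genes were higher than in LI crypts and 0 lower, with edgeR and with DESeq2 (1 lower at an unadjusted p under 0.05, Gins2), and 6 mitosis genes (28.6%) were higher and 1 lower, where 29.2% of all tested genes were called higher and 24.7% lower. The median log2 fold change was 0.59 for replication genes, 0.09 for mitosis genes and 0.06 for all tested genes. Libraries did not overlap for 20 of the 21 replication genes, with SI on top, against 29.6% of all tested genes, and for 4 mitosis genes with SI on top and 1 with LI on top (29.2%). Fen1 alone passed a log2 change of 1 (1.07 ± 0.18, adjusted p = 8.8e-05), followed by Cdc6 (0.997 ± 0.092, adjusted p = 1.45e-07), which was just under it, beside 11.6% of all tested genes that were higher and 11.1% that were lower by that rule. The regulators E2f1, Foxm1 and E2f2 were also higher in SI crypts, by 0.72 ± 0.14, 0.43 ± 0.07 and 0.41 ± 0.07.

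The mitosis genes that were higher in SI crypts were led by Kif11, the motor that separates spindle poles, at 4256, 4505 and 4725 normalized counts in SI crypts, 3283, 3103 and 3294 in LI crypts, 4594, 4568 and 4173 in SI monolayers and 3292, 3382 and 3436 in LI monolayers. Kif11 followed the region in crypts (0.52 ± 0.06, adjusted p = 9.44e-07) and in monolayers (0.43 ± 0.06, adjusted p = 8.57e-06), without overlap in either. Top2a was also higher in SI crypts (0.48 ± 0.06, adjusted p = 5.76e-06), and Plk1 was lower (-0.50 ± 0.06, adjusted p = 4.88e-06). The calls of Birc5, Ube2c and Aurkb in SI crypts were lost in 10, 7 and 4 of 12 fits without 1 library. With only the crypt libraries in the fit, 3 instead of 6 mitosis genes were called higher.

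In monolayers, replication genes were close in level and mitosis genes were higher in SI. Here 8 replication genes were higher in SI and 1 lower, while 16 mitosis genes were higher and 2 lower, where 27.0% of all tested genes were called higher and 24.9% lower. Libraries did not overlap, with SI on top, for 9 replication and 17 mitosis genes (30.6% of all tested genes), and with LI on top for 1 and 2 (31.7%). The median log2 fold change was 0.08 for replication genes, 0.37 for mitosis genes and 0.02 for all tested genes, and with edgeR and DESeq2 0 replication or mitosis genes passed a log2 change of 1, as 12.4% of all tested genes did upwards and 8.88% downwards. All 7 cyclins and kinases were higher in SI monolayers, as were 3 of 4 checkpoint genes. The SI over LI difference was 0.89 ± 0.09 for Ccnb2 (adjusted p = 4.75e-07), 0.74 ± 0.07 for Cdc20 (adjusted p = 3.45e-07), 0.71 ± 0.10 for Cenpa (adjusted p = 5.9e-05), 0.49 ± 0.08 for Aurka (adjusted p = 5.9e-05) and 0.37 ± 0.06 for Plk1 (adjusted p = 0.000118). Cenpe and Cenpf were lower, with values of -0.28 ± 0.09 (adjusted p = 0.0166) and -0.21 ± 0.08 (adjusted p = 0.0445), calls that were lost in 3 and 7 of 12 fits without 1 library.

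Among replication genes, Mcm10, a factor that helps to activate the helicase, was higher in SI in crypts and in monolayers. It was at 1929, 1750.2 and 1727 normalized counts in SI crypts, 2337, 2411 and 2477 in SI monolayers, 1109, 1218 and 968 in LI crypts and 1479, 1592 and 1509.9 in LI monolayers. SI was above LI without overlap in crypts (0.75 ± 0.08, adjusted p = 5.64e-07) and in monolayers (0.69 ± 0.08, adjusted p = 1.57e-06). Gins1 was at 916, 874 and 941 in SI crypts, 1033, 973 and 1029 in SI monolayers, 681, 748 and 626 in LI crypts and 709, 840.2 and 794 in LI monolayers, and its difference in monolayers was 0.40 ± 0.09 (adjusted p = 0.00115). Cdc45 was at 1559, 1557 and 1615 in SI monolayers and 1219, 1195 and 1256 in LI monolayers, a difference of 0.40 ± 0.08 (adjusted p = 0.000477). Mcm3 differed by 0.02 ± 0.08 between the monolayers (adjusted p = 0.88) and Mcm6 was lower in SI monolayers (-0.19 ± 0.08, adjusted p = 0.0431), a call lost in 10 of 12 fits without 1 library.

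**Figure D5:**
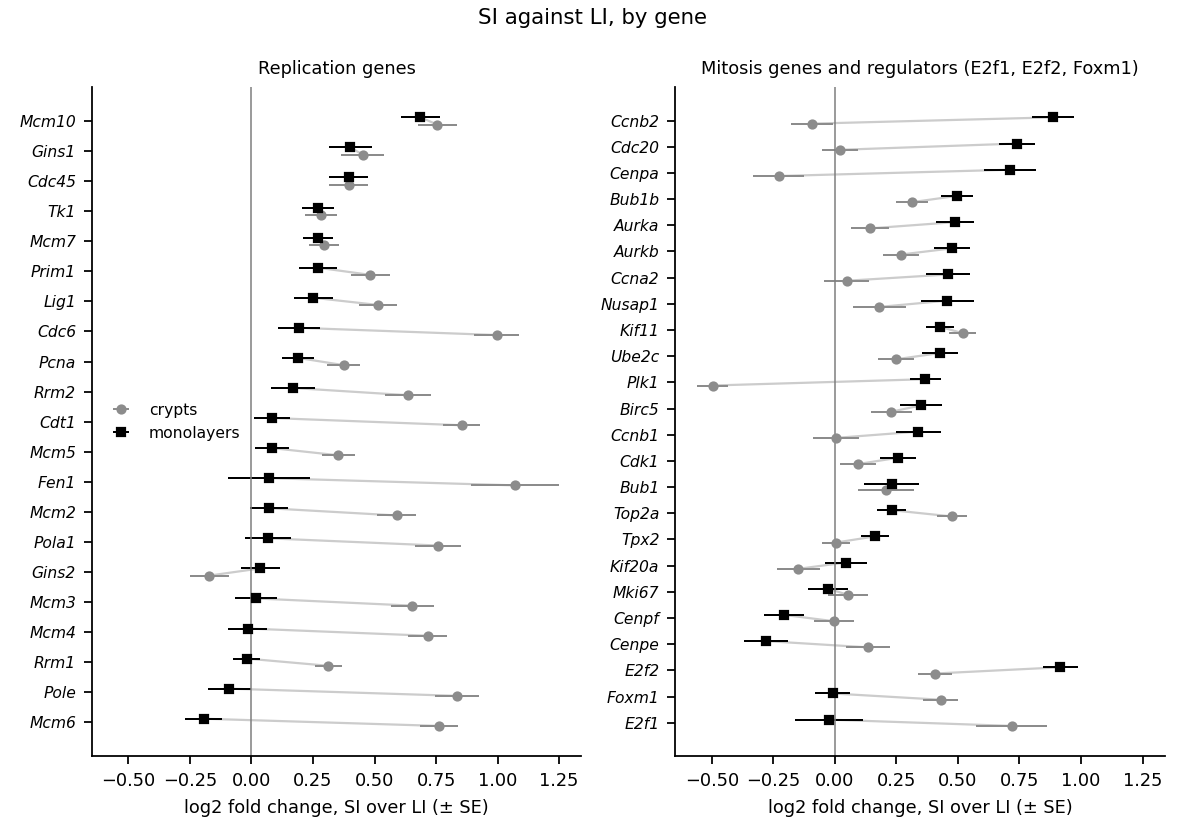
Log2 fold change of SI over LI (x axis, ± SE derived from edgeR's F statistic) for each gene (y axis), with circles for crypts and squares for monolayers. Replication genes have a median of 0.59 in crypts and 0.08 in monolayers, and mitosis genes 0.09 in crypts and 0.37 in monolayers.

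The interaction of region and culture tests whether the change from crypts to monolayers differed between SI and LI, and it is the test behind the shift of the region's difference. It was negative for 12 replication genes, a smaller rise in SI than in LI, and positive for 0 of them at an adjusted p under 0.05, with DESeq2 and at an unadjusted p as well. It was positive for 7 mitosis genes (Ccna2, Ccnb1, Ccnb2, Plk1, Aurka, Cdc20 and Cenpa) and negative for 2 (Cenpe and Top2a), where 23.3% of all tested genes were called positive and 23.0% negative. The median was -0.33 for replication genes, 0.18 for mitosis genes and -0.0002 for all tested genes. With edgeR 0 members, and with DESeq2 1 replication gene, passed a log2 value of 1 with the adjusted p, where 11.4% of all tested genes were above it and 8.51% below, and Fen1 came closest (-0.9996 ± 0.24, adjusted p = 0.00318). With upper quartile scaling, which moved the median of all genes, 11 mitosis genes instead of 7 were positive.

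The smaller calls of the interaction were lost in some fits without 1 library. Mcm5 (-0.27 ± 0.10) and Top2a (-0.24 ± 0.09) lost the call in 8 and 10 of 12 such fits. Cenpe (-0.41 ± 0.13) lost it in 5, Rrm1 and Rrm2 (-0.33 ± 0.08 and -0.47 ± 0.13) in 4 each and Ccnb1 (0.33 ± 0.13) in 3. Fits without 1 monolayer library moved the median interaction of all tested genes by 0.096 to 0.118. Those without 1 crypt library moved it by -0.012 to 0.013. The part of this shift in the lost calls was not tested. E2f1 and Foxm1 had a negative interaction (-0.74 ± 0.20 and -0.44 ± 0.10), like 12 of the replication genes, and E2f2 a positive one (0.51 ± 0.10, adjusted p = 0.000478). The interaction of Cdc45 was 0.00041 (SE 0.11) and that of Tk1 -0.01 ± 0.09 (adjusted p = 1.0 and 0.942).

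Of 105 other genes of the pathway, 42 for replication, 47 for mitosis and 16 regulators, 25 of the replication genes rose and 4 fell in SI monolayers, and 29 rose and 6 fell in LI monolayers. For mitosis the counts were 25 and 6 in SI and 22 and 11 in LI, and for the regulators 10 and 4 in each region. All tested genes were called higher and lower in 29.0% and 30.6% of cases in SI and in 32.1% and 36.6% in LI, while 53.2% and 12.8% of the other mitosis genes were in SI and 46.8% and 23.4% in LI. The median log2 fold change was 0.29 for replication and 0.28 for mitosis in SI, and 0.56 and 0.08 in LI, against -0.05 for all tested genes in both. Between crypts, 25 other replication genes were higher in SI and 5 lower, with 14 (29.8%) and 2 for mitosis and 9 and 1 for the regulators, so the share of mitosis genes called higher was near the 29.2% of all tested genes. Between monolayers the counts were 19 and 6 for replication, 27 and 2 for mitosis and 6 and 3 for the regulators, where 27.0% of all tested genes were higher and 24.9% lower. The interaction was negative for 15 (35.7%) and positive for 4 other replication genes, and negative for 6 and positive for 1 of the regulators, where 23.0% of all tested genes were negative. It was positive for 13 (27.7%) and negative for 4 other mitosis genes, a share of positive values near the 23.3% of all tested genes.

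Anln and Ect2, which act in cytokinesis, rose in SI by 1.55 ± 0.08 and 1.64 ± 0.09 on the log2 scale, and Anln and Kif23, a motor of the dividing bridge, rose in LI by 2.003 ± 0.08 and 1.62 ± 0.08. Pttg1, the securin that is destroyed at anaphase, fell by 0.70 ± 0.09 in SI and by 1.75 ± 0.10 in LI, and Spc24, of the kinetochore, fell in LI by 1.23 ± 0.09. Of the replication genes, Orc1 and Orc2 of the origin recognition complex rose in SI by 1.22 ± 0.11 and 0.96 ± 0.08, and Chaf1a, a histone chaperone at the fork, and Orc2 rose in LI by 1.55 ± 0.07 and 1.33 ± 0.08. Rpa3, a subunit of the protein that coats single strands, fell by 0.59 ± 0.07 in SI and by 1.47 ± 0.07 in LI. Genes named here for 1 region had the largest changes there, and their means moved the same way in the other region. In SI, mean normalized counts went from 3276 to 6842 for Kif23, 1791 to 2881 for Chaf1a and 2255 to 1868 for Spc24. In LI, they went from 3043 to 8576 for Ect2 and from 517 to 1001 for Orc1.

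Among the other regulators, Mybl2, which encodes B-Myb, rose by 1.71 ± 0.12 in SI and by 2.59 ± 0.12 in LI, from 1393 ± 131 to 4454 ± 193 and from 711 ± 131 to 4139 ± 431 normalized counts (SD, n = 3). E2f7, a repressor among the E2F factors, rose by 0.84 ± 0.14 in SI and 2.55 ± 0.15 in LI (interaction -1.71 ± 0.20, adjusted p = 3.41e-06). The pocket protein gene Rbl2, whose product holds back cell cycle genes in resting cells, fell by 0.88 ± 0.06 in SI and by 1.02 ± 0.06 in LI. Rb1 fell in LI by 0.77 ± 0.08 and Tfdp2, a partner of E2F factors, fell in SI by 0.83 ± 0.07. Both were also lower with culture in the other region. Rb1 went from 3083 ± 247 to 1756 ± 108 normalized counts in SI, and Tfdp2 from 2344 ± 132 to 1809 ± 171 in LI (SD, n = 3).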

How the data were processed

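RNA from 12 mouse libraries was sequenced as paired ends on an Illumina HiSeq. According to the methods of the study, the authors aligned reads to GRCm38 with STAR 2.7.9a, and made gene counts with featureCounts 2.0.2 against a GENCODE annotation. The deposited counts are whole numbers per gene and are not normalized. The deposited normalized values are a signal that the authors made by dividing the counts by DESeq2 size factors. The use of strand in counting is not given in the sources used here. Libraries held 59016196 to 76216530 counts, of which 3 counts make 0.0394 to 0.0508 CPM. A name is carried by 55141 of 55487 rows, and the 346 without a name were not removed before the filter and the tests.

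Counts were tested with edgeR 4.0.16 in R 4.3.3 (filterByExpr, TMM scaling, robust quasi-likelihood fit with 1 mean per group), with Benjamini-Hochberg adjustment over 19581 genes. The SE of a log2 fold change is its absolute value divided by the square root of the test's F statistic, since the test gives no SE itself. Levels in the text are the authors' normalized counts, and levels per kb use exon lengths of GENCODE vM21. Sequences came from RefSeq tables. The members and lists, and the promoters printed, were chosen with earlier results of these data known. Other genes of the pathway were named by a rule, which takes from each list up to 2 called genes in each direction by size of change, and not all of these are reported here. Alternatives were DESeq2 1.42.0, upper quartile and RLE scaling, other filters, a fit on the compared groups, a replicate block and the omission of each library. For pairs of replicates, the median over genes of the squared difference, scaled by its counting variance, was 4.28 to 15.8 times that of counting alone. All 12 libraries were counted as separate samples. Same-numbered libraries of different groups had correlations of their deviations of -0.05 to 0.06.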

Additional observations from a re-analysis of the deposited data

Results flagged for a closer look

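The change from crypts to monolayers differed between SI and LI for 24 of the 45 genes. The test was that of the difference itself (edgeR's interaction, Benjamini-Hochberg adjusted p under 0.05). Of all tested genes, 23.3% were called positive and 23.0% negative. The count of 24, which is in either direction, is thus near the share of all tested genes called in either direction. By direction, 57.1% of the replication genes were negative and 0% positive. Of the mitosis genes, 33.3% were positive and 9.52% negative. Values are the log2 change in SI minus that in LI.

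For genes of the helicase and its loading they were -0.52 for Mcm2, -0.63 for Mcm3, -0.73 for Mcm4, -0.27 for Mcm5, -0.96 for Mcm6, -0.80 for Cdc6 and -0.77 for Cdt1. For the polymerase and fork genes they were -0.69 for Pola1, -0.93 for Pole and -0.9996 for Fen1, and for ribonucleotide reductase -0.33 for Rrm1 and -0.47 for Rrm2. Of these 12 replication genes, 11 rose in both regions and Pola1 passed the test in LI alone. Without 1 library, Mcm5 lost its call in 8 of 12 fits (values from -0.35 to -0.13), Rrm1 in 4 (-0.37 to -0.18) and Rrm2 in 4 (-0.61 to -0.31).

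For mitosis genes they were 0.41 for Ccna2, 0.33 for Ccnb1, 0.98 for Ccnb2, 0.86 for Plk1, 0.35 for Aurka, 0.72 for Cdc20 and 0.94 for Cenpa, and -0.41 for Cenpe and -0.24 for Top2a. Without 1 library, Top2a lost its call in 10 of 12 fits (-0.31 to -0.093), Cenpe in 5 (-0.51 to -0.23) and Ccnb1 in 3 (0.19 to 0.47). Of the regulators, E2f1 had -0.74, Foxm1 -0.44 and E2f2 0.51. Fen1 shares 84.2% of its exon bases with genes on the other strand. The summed immune, stem cell and mature cell markers and the mitochondrial share also changed with culture in both regions, and their part in these differences was not tested.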

How the results depend on the processing

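Without a minimum fold change, which by construction adds genes, the counts in either direction became 17 replication and 15 mitosis genes in SI, 19 and 15 in LI, 20 and 7 between crypts, 9 and 18 between monolayers, and 12 and 9 for the interaction. Of all tested genes, 29.0% were called higher and 30.6% lower in SI, and 32.1% and 36.6% in LI. The shares were 29.2% and 24.7% between crypts, 27.0% and 24.9% between monolayers, and 23.3% and 23.0% for the interaction. Taken in either direction, the mitosis counts in LI and for the interaction were thus near the share of all tested genes. For the other changes below the cause was not tested. In SI, mitosis genes called lower became 4 when at least 10 counts in every library were required. In LI, with upper quartile scaling the median of replication genes was 0.79 and that of mitosis genes -0.010. Between crypts, 1 replication gene was lower with upper quartile scaling, with RLE scaling, with no filter and with 10 counts in every library. There the mitosis genes called higher became 3 in a fit of the crypts alone, and those lower became 2 with DESeq2, RLE scaling or 10 counts, and 3 with upper quartile scaling or no filter. Between monolayers, 0 replication genes were lower with upper quartile scaling. For the interaction, replication genes past both limits became 1 with DESeq2 and with RLE scaling, mitosis genes with a positive value 11 with upper quartile scaling, those with a negative value 1 with upper quartile scaling or no filter, and mitosis genes past both limits 2 with upper quartile scaling and 1 with no filter.

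The sources used here do not say whether same-numbered libraries share an animal, and their deviations did not go together, so they were not taken as pairs. With a replicate block, 0 replication and 1 mitosis gene were lower in SI than in LI monolayers, the calls of Lig1 in SI (adjusted p = 0.0599), Mcm6 (0.0578) and Cenpf (0.0577) between monolayers were lost, and 156 of 159 values for single genes kept their side of the threshold.

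Without single libraries, the medians of replication and mitosis genes ranged from 0.80 to 0.97 and 0.021 to 0.13 in LI, from 0.50 to 0.67 and 0.0086 to 0.17 between crypts, from -0.37 to -0.18 and 0.11 to 0.32 for the interaction, and that of replication genes between monolayers from 0.085 to 0.17. Mitosis genes past both limits in LI were 1 to 2. Between crypts, replication genes lower were 0 to 1, those past both limits 0 to 2, mitosis genes higher 3 to 9 and lower 1 to 3. Between monolayers, replication genes lower were 0 to 1 and mitosis genes lower 0 to 2. For the interaction, replication genes with a positive value were 0 to 1 and past both limits 0 to 3, and mitosis genes with a positive value 6 to 12, with a negative value 0 to 2 and past both limits 0 to 3. The uncalled log2 value of Mki67 turned sign between crypts, at -0.017 with upper quartile scaling, -0.0026 with no filter and -0.0088 in a fit of the crypts alone, and without single libraries ran from -0.18 to 0.046 in LI, -0.031 to 0.14 between crypts, -0.081 to 0.073 between monolayers and -0.16 to 0.094 for the interaction. The median coefficient of variation between replicates was 0.127 with 3 libraries a group, and no limit of detection was computed.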
